A study of Rattus norvegicus with 66 samples.

Results

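The 9 genes described here encode proteins grouped as writers, erasers and readers of DNA methylation and were measured in the RNA of the neonatal rat hippocampus. They comprise the DNA methyltransferases Dnmt1, Dnmt3a and Dnmt3b, the dioxygenases Tet1, Tet2 and Tet3, and the methyl-CpG binding domain proteins Mbd1, Mbd2 and Mbd3. They were chosen by name, and each was the row of that symbol in the gene table among 37777 genes. The choice used no measured value. All 9 were found, and all 9 passed the filter on low counts in every comparison.

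Methylation of cytosine in CpG dinucleotides is one of the marks by which a cell keeps genes silent. Dnmt1 copies the mark onto the new DNA strand after replication, whereas Dnmt3a and Dnmt3b place it on DNA that did not carry it. Tet enzymes oxidise 5-methylcytosine to 5-hydroxymethylcytosine, an intermediate of demethylation that accumulates in maturing neurons. Mbd1 and Mbd2 bind methylated CpG, and Mbd2 and Mbd3 are alternative subunits of the NuRD complex, a chromatin remodeller that also removes acetyl groups from histones. RNA levels show neither enzyme activity nor methylation, and neither was measured in the libraries.

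RNA was sequenced from the dorsal hippocampus, with a small piece of lateral cortex, of 64 Long Evans pups on postnatal day 6 (PND 6), 41 males and 23 females. The question was whether developmental exposure to Aroclor 1254 (Aro, a mixture of polychlorinated biphenyls), bisphenol A (BPA, a plastics monomer) or chlorpyrifos (CPF, an organophosphate insecticide) alters gene expression in both sexes. Aro and BPA were given to the dams in chow from before mating through lactation, and CPF was injected subcutaneously during gestation and again after birth. Pups were thus exposed through the dam and were still exposed when they were killed. Feeding controls (CONF, 4 males and 5 females) received soy-free chow, and injection controls (CONSC, 5 of each sex) came from dams injected with vehicle. The high-dose groups were Aro5 (5 mg/kg, 6 males and 5 females), BPA5 (5 mg/kg, 7 males and 4 females) and CPF3 (3 mg/kg, 7 males and 4 females). Low doses were studied in males only, in Aro0.5 (0.5 mg/kg), BPA0.5 (0.5 mg/kg) and CPF1 (1 mg/kg), with 4 pups each. CONF and CONSC pups of a sex were combined as its controls, 9 males and 10 females, so that comparisons within a sex share their controls.

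The 66 libraries held 10644138 to 86206550 counted reads, with a median of 20740650. Library names were written in 2 forms, called A and B here, whose meaning is not stated. Of the male control libraries 9 of 10 carried form A, as did all 12 low-dose male libraries, whereas all 20 high-dose male libraries carried form B. Form and high dose therefore cannot be told apart in males. Of the female control libraries 5 carried form A and 6 form B, and the form was unclear for all 13 libraries of high-dose females. In addition, 11 pups were dissected outside the time window of 10.30 to 13.20 h given in the study's methods. A pair of pups had 2 libraries each, which were summed. Markers of neurons, glia, endothelium and choroid plexus were detected in every pup, as were markers of thalamus. The summed level of the thalamus markers varied widely, from 61.8 to 632 CPM in Aro5 males and from 287 to 771 CPM in control males. In females it was 72.2 to 603 CPM in CPF3 and 276 to 662 CPM in controls. The part of this spread in the levels of the 9 genes was not tested. In whole tissue, fewer cells of a type and less RNA per cell cannot be told apart.

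The promoters of Mbd3 and Dnmt1 are shown because these were the genes of the set that differed between the sexes. RefSeq's rat assembly GRCr8 lists a promoter window for 8 of the 9 genes (no entry for Dnmt3b). The 250 bases before the start of each transcript are given 5′ to 3′ on the gene's strand, with every CpG dinucleotide in capitals. The reads were aligned to another assembly, and the methylation of these bases was not measured.
Mbd3, chr7:9963390-9963639, plus strand: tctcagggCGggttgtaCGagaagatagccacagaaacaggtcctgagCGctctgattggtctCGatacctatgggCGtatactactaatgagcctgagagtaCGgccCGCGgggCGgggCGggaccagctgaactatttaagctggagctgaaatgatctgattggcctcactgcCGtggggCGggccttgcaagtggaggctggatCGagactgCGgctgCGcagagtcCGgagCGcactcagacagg
Dnmt1, chr8:27762842-27763091, minus strand: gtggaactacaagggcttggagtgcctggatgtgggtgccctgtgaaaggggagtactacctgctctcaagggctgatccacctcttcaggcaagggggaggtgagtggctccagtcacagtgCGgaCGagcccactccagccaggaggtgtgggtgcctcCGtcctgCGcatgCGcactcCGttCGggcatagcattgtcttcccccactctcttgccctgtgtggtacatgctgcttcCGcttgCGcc
The Mbd3 window held 17 CpG, and 21.9% of the 33469 windows in the table held at least as many. The Dnmt1 window held 9 CpG, a count reached or passed by 38.5% of the windows, against a median of 5.

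Levels are given as CPM, the reads of a gene per 1000000 counted reads of the library. CPM are not corrected for transcript length, so levels are compared between groups and not between genes. Over the 13 groups Tet1 varied most, from a group mean of 1.57 ± 0.327 CPM (SD, n = 4) in Aro0.5 males to 5.28 ± 2.37 CPM (SD, n = 6) in Aro5 males, a ratio of 3.36. Tet1 was also read thinly, with 11 to 275 counts per pup. Mbd3 followed with a ratio of 2.18 between its highest and lowest group means, 83.7 ± 11.6 CPM (SD, n = 5) in Aro5 females and 38.5 ± 10.7 CPM (SD, n = 4) in BPA0.5 males. For Tet2 the ratio was 1.55, for Dnmt1 1.48, for Tet3 1.29, for Dnmt3b 1.28 and for Dnmt3a 1.21. Mbd1 and Mbd2 were the most even, with ratios of 1.14 and 1.14. Ordered by their means, neighbouring groups differed by no more than the larger of their 2 SDs for 8 of the 9 genes. The exception was Dnmt1, where Aro0.5 males (53.4 ± 4.82 CPM, SD, n = 4) lay below CONF males (62.8 ± 7.14 CPM, SD, n = 4) by more than the larger of the 2 SDs. For Mbd3 the step from CPF3 males (61.2 ± 18.5 CPM, SD, n = 7) to CONF females (77.9 ± 4.13 CPM, SD, n = 5) exceeded only the smaller SD. The 5 female groups took the 5 highest places for both Dnmt1 and Mbd3. For Tet1 and Tet2 the highest place fell to Aro5 males and the lowest to Aro0.5 males.

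**Figure D1:**
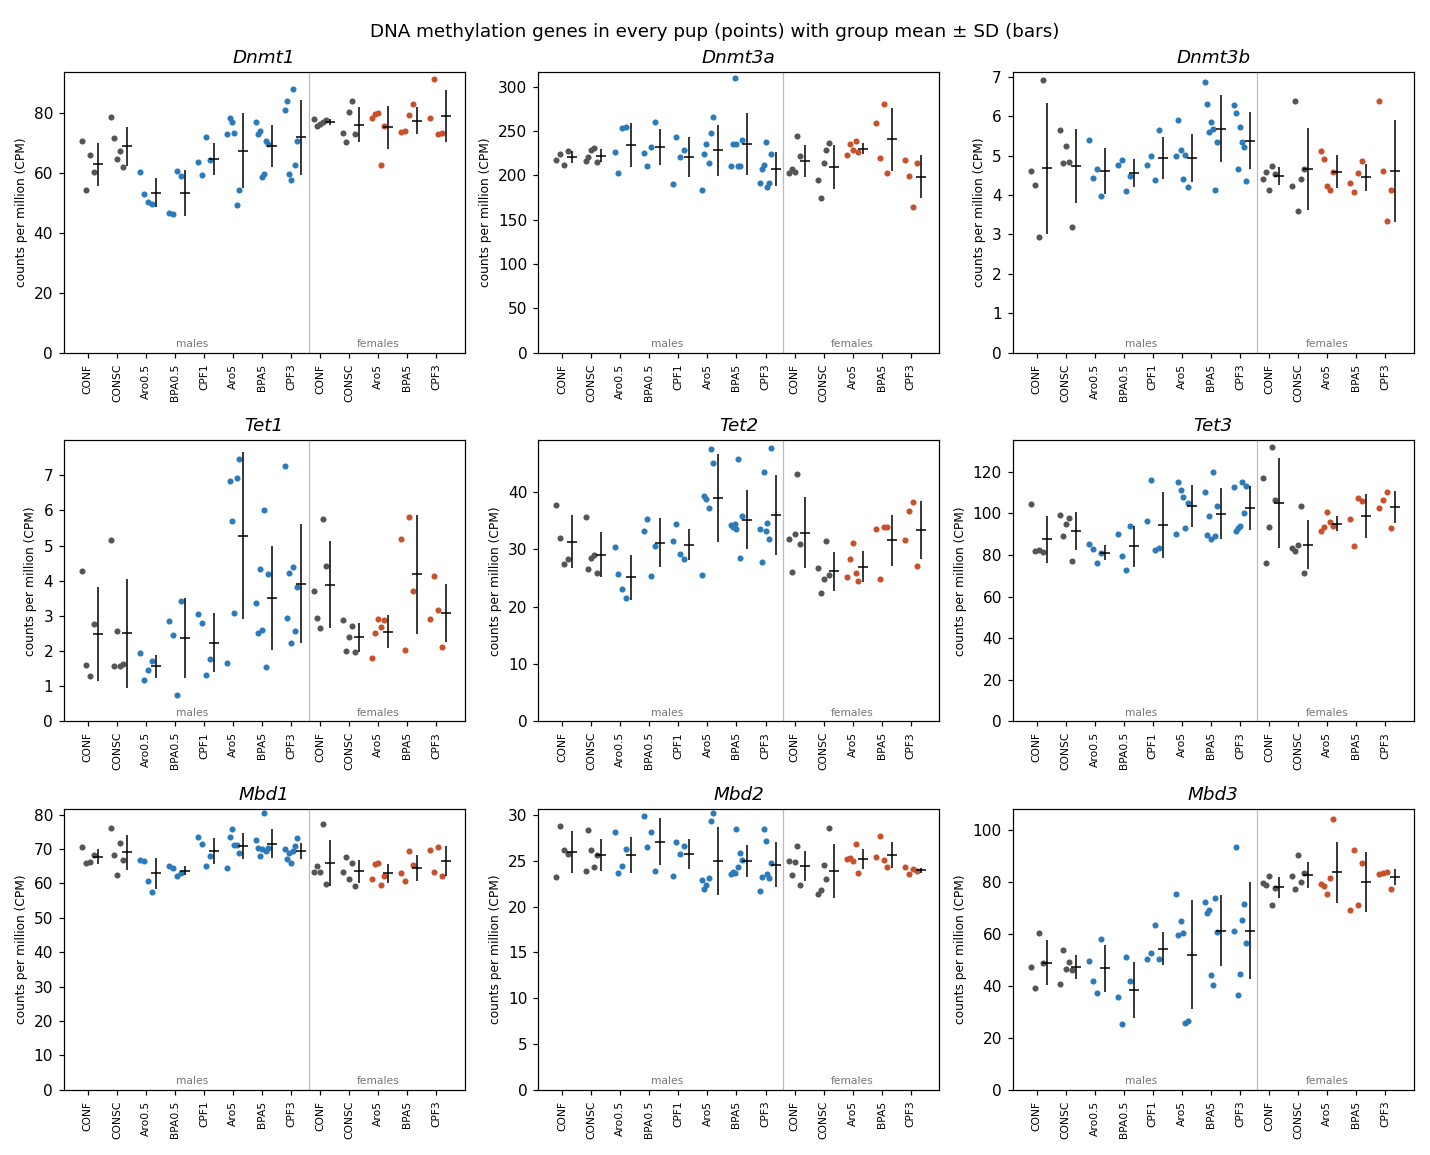
Each panel plots 1 gene, with the level in CPM on the y axis from 0 and the 13 groups on the x axis. Points are pups (grey controls, blue treated males, red treated females) and bars are group mean ± SD. Mbd3 in female groups sits above that in most males, with female group means of 77.9 to 83.7 CPM and male group means of 38.5 to 61.2 CPM, and Tet1 spreads most within Aro5 males.

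The erasers had the largest differences under high-dose Aroclor in males, although no member passed the threshold of an adjusted p under 0.05. In the 6 Aro5 males Tet1 was read at 1.67, 3.08, 5.71, 6.85, 6.92 and 7.47 CPM, against a range of 1.30 to 5.15 CPM and a median of 1.64 CPM in the 9 control males. Thus 4 Aro5 males lay above every control, and the remaining 2 lay within the control range. By edgeR's quasi-likelihood test the log2 fold change of Tet1 was 1.04 ± 0.32 (SE), with an unadjusted p of 0.00295 and an adjusted p of 0.22.

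Tet2 was read at 25.5, 37.2, 38.9, 39.3, 45.1 and 47.5 CPM in the Aro5 males and at 25.8 to 37.7 CPM (median 28.5) in the controls. As for Tet1, 4 Aro5 males lay above all controls, but 1 lay just below all of them and the remaining pup lay within their range. Its log2 fold change was 0.38 ± 0.12 (SE; unadjusted p = 0.00313, adjusted p = 0.22). Tet3 ranged from 90.2 to 115.0 CPM (median 106.3) in Aro5 and from 77.1 to 104.4 CPM (median 88.9) in controls, with a log2 fold change of 0.22 ± 0.08 (SE; unadjusted p = 0.00623, adjusted p = 0.25). All 6 Aro5 males lay above the control mean of Tet3, and 5 of 6 did so for Tet1 and Tet2. The lowest value of each Tet gene came from Aro5 pup 108-1y, whose litter held no other pup of the group. The highest values of Tet1 and Tet2 came from the littermates 120-1y and 120-2y, which were exposed through the same dam. With 1 pup per litter and sex the log2 fold changes were 0.93 ± 0.335 (SE; unadjusted p = 0.00984, adjusted p = 0.393) for Tet1 and 0.34 ± 0.12 (SE; unadjusted p = 0.0113, adjusted p = 0.404) for Tet2.

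In all, 3 of 9 members had an unadjusted p under 0.05 in Aro5 males, all higher, and 0 of 9 an adjusted p under 0.05. Among all 16393 genes tested these shares were 11.8% and 0.195%. Restricted to pups within the time window, Tet1 (log2 fold change 1.57 ± 0.34, SE, adjusted p = 0.0259) and Tet2 (0.54 ± 0.14, adjusted p = 0.0326) passed, in a comparison in which 818 of all genes passed in place of 32. The window leaves out Aro5 pups 108-1y and 117-4y, the pups with the lowest Tet1 in the group. It keeps Aro5 males 115-14y, 116-6y and the littermates 120-1y and 120-2y, which share a dam and entered as separate samples. A fit within the window with 1 pup per litter and sex was not made. It also leaves out the control males 10-2y, 13-1y and 6-5y, of which 10-2y had the highest Tet1 of the controls, 5.15 CPM. Without 10-2y alone the log2 fold change of Tet1 was 1.24 ± 0.32 (SE; adjusted p = 0.0849). Leaving out 108-1y alone also let both genes pass, with adjusted p values of 0.0465 and 0.0418. The share of all genes that passed in that fit is not given here, so these 2 calls have no background beside them. Without Aro5 pup 116-6y alone the adjusted p was 0.444 for Tet1 and 0.437 for Tet2. Against CONF males only, the controls of the same route, the log2 fold changes were 1.02 ± 0.42 (SE; adjusted p = 0.828) for Tet1 and 0.32 ± 0.15 (SE; adjusted p = 0.828) for Tet2. With the library name form as a covariate, which rests on a single control library of form B, the log2 fold changes were 0.62 ± 0.71 (SE) for Tet1, 0.25 ± 0.26 for Tet2 and −0.06 ± 0.15 for Tet3. Mean Tet1, Tet2 and Tet3 in female control libraries were 3.015, 28.8 and 87.9 CPM in form A. They were 3.734, 32.4 and 107.7 CPM in form B, with overlapping ranges and an uneven spread of routes over the forms. In control male N2-2y Tet1 and Tet2 were lower and Tet3 higher in form B.

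**Figure D2:**
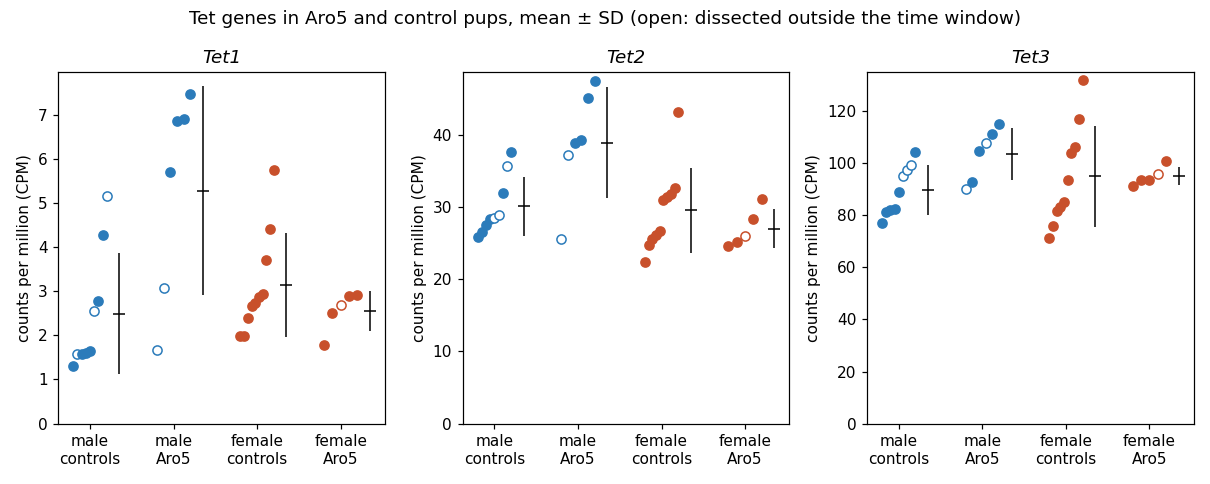
Levels of Tet1, Tet2 and Tet3 in CPM (y axis from 0) in control and Aro5 pups of both sexes, with mean ± SD as bars; open points are pups dissected outside the time window. In males 4 of 6 Aro5 pups lie above all 9 controls for each gene, while the 5 Aro5 females lie within or below the range of the 10 female controls.

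In BPA5 and CPF3 males the Tet genes had means above the controls by smaller amounts. Tet1 ranged from 1.56 to 6.00 CPM (median 3.36) in BPA5 and from 2.24 to 7.26 CPM (median 3.82) in CPF3. The log2 fold changes were 0.43 ± 0.32 (SE; unadjusted p = 0.183) and 0.61 ± 0.32 (SE; unadjusted p = 0.0632). Tet2 had 0.23 ± 0.11 (SE; unadjusted p = 0.0576) in BPA5 and 0.27 ± 0.12 (SE; unadjusted p = 0.0274) in CPF3. Tet3 had 0.16 ± 0.07 (SE; unadjusted p = 0.0374) in BPA5, with 4 of 7 pups above the control mean, and 0.20 ± 0.07 (SE; unadjusted p = 0.00872) in CPF3, with 7 of 7. Adjusted p values of the Tet genes lay between 0.296 and 0.667 in these comparisons. With the library name form as a covariate Tet3 turned to −0.13 ± 0.15 (SE) in BPA5 and −0.08 ± 0.15 in CPF3, and Tet2 in CPF3 was 0.13 ± 0.26. The 3 chemicals were compared with the same 9 controls, so their values are not independent of each other.

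With unadjusted p under 0.05, BPA5 males had 2 of 9 members (Tet3 and Dnmt3b, both higher) beside 9.10% of all genes, and CPF3 males had 2 of 9 (Tet2 and Tet3, both higher) beside 12.6%. None had an adjusted p under 0.05, beside 0.189% and 0.159% of all genes. The median log2 fold change of the 9 members in males was 0.08 for Aro5, 0.16 for BPA5 and 0.19 for CPF3, and that of all genes lay within 0.01 of 0 in each.

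At the low doses no Tet gene had an unadjusted p under 0.05. Tet1 was 1.18, 1.46, 1.72 and 1.93 CPM in the 4 Aro0.5 pups, with 33 to 55 counts each, all below the control mean of 2.50 CPM and all but the lowest inside the control range. Its log2 fold change was −0.65 ± 0.35 (SE; unadjusted p = 0.0738). In BPA0.5 and CPF1 males it was −0.07 ± 0.35 (SE) and −0.20 ± 0.36 (SE). Aro0.5 against Aro5 males was not tested, because low and high dose were fitted apart and differed in library name form.

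Of the writers, Dnmt1 had the smallest unadjusted p of any member at the low doses, with lower levels in BPA0.5 and Aro0.5 males that did not pass after adjustment. The 4 BPA0.5 males had 46.3, 46.8, 59.1 and 60.6 CPM and the 4 Aro0.5 males 49.6, 50.5, 53.1 and 60.2 CPM, whereas control males had 54.2 to 78.6 CPM with a median of 66.0. All 8 low-dose pups lay below the control mean of 66.2 CPM, and groups overlapped. The log2 fold change was −0.28 ± 0.09 (SE; unadjusted p = 0.0037, adjusted p = 0.413) for BPA0.5 and −0.24 ± 0.09 (SE; unadjusted p = 0.00928, adjusted p = 0.167) for Aro0.5. Restricted to libraries of form A, the values were −0.26 ± 0.09 and −0.22 ± 0.09 (SE). In CPF1 males Dnmt1 differed by −0.02 ± 0.09 (SE) on the log2 scale, with a 95% interval of −0.20 to 0.16.

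Dnmt1 in high-dose males lay near the controls, with log2 fold changes of 0.05 ± 0.10, 0.07 ± 0.10 and 0.13 ± 0.10 (SE) for Aro5, BPA5 and CPF3. In Aro5 males the male pups of a single litter lay apart from the others. The littermates 120-1y and 120-2y had 49.3 and 54.3 CPM of Dnmt1 and 25.7 and 26.6 CPM of Mbd3, while the other 4 pups had 73.0 to 78.2 CPM of Dnmt1 and 59.4 to 75.4 CPM of Mbd3. The female of that litter, 120-3x, had 75.6 CPM of Dnmt1 and the highest Mbd3 of all pups, 104.1 CPM. In other litters, BPA5 males 86-9y (58.6 CPM of Dnmt1, 44.0 of Mbd3) and 88-3y (59.8 and 40.5) were the lowest of their group for both genes. So were CPF3 males 38-1y (59.7 and 36.6) and 40-3y (57.5 and 44.7). The part of litter was not tested.

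The de novo enzymes varied little. Dnmt3a had a log2 fold change of 0.15 ± 0.07 (SE; unadjusted p = 0.0331, adjusted p = 0.237) in Aro0.5 males. In BPA5 females it had 0.19 ± 0.08 (SE; unadjusted p = 0.0325, adjusted p = 0.925). Its group means ranged from 199 to 241 CPM. Dnmt3b, at 35 to 356 counts per pup, had a log2 fold change of 0.27 ± 0.13 (SE; unadjusted p = 0.0436, adjusted p = 0.538) in BPA5 males, with 4.13 to 6.86 CPM against 2.92 to 6.92 CPM in the controls. The groups overlapped over nearly their whole range, and 6 of 7 BPA5 pups lay above the control mean of 4.71 CPM.

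Of the readers, Mbd1 and Mbd2 had unadjusted p values of 0.115 to 0.933 over the 9 comparisons of treated with control pups. Mbd3 in males ranged from 40.5 to 73.6 CPM in BPA5 and from 36.6 to 93.3 CPM in CPF3, with 5 of 7 pups of each group above the control mean of 47.9 CPM. The log2 fold changes were 0.36 ± 0.19 (SE; unadjusted p = 0.0717) and 0.37 ± 0.19 (SE; unadjusted p = 0.0682), with 95% intervals of −0.03 to 0.76 and −0.03 to 0.76. In BPA0.5 males Mbd3 was 25.4, 35.9, 41.7 and 50.9 CPM, a log2 fold change of −0.28 ± 0.14 (SE; unadjusted p = 0.0588).

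Counted over the low doses, 2 of 9 members in Aro0.5 males (Dnmt1 lower, Dnmt3a higher), 1 of 9 in BPA0.5 males (Dnmt1) and 0 of 9 in CPF1 males had an unadjusted p under 0.05. The shares of all 16139 genes were 18.5%, 8.58% and 2.00%. None of the members had an adjusted p under 0.05, beside 0.124%, 0.0434% and 0.00% of all genes.

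**Figure D3:**
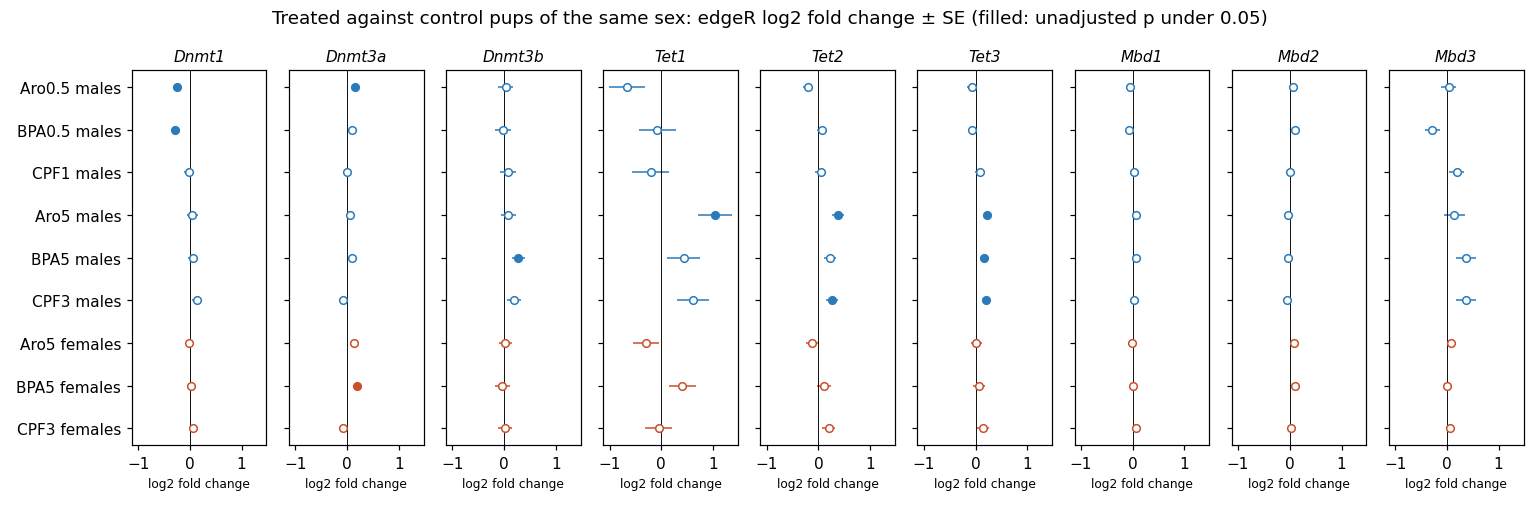
Each panel is 1 gene, with the log2 fold change of treated against control pups of the same sex ± SE on the x axis and the 9 comparisons on the y axis (blue males, red females). Filled points have an unadjusted p under 0.05, which 10 male values and 1 female value do, and no value has an adjusted p under 0.05.

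In females no comparison of treated with control pups gave a member with an adjusted p under 0.05. The share among all 16992 genes was 0.00% for each of Aro5, BPA5 and CPF3. An unadjusted p under 0.05 was reached by 0, 1 (Dnmt3a in BPA5) and 0 of 9 members, beside 3.23%, 4.08% and 8.79% of all genes. Tet1 in the 5 Aro5 females was 1.79 to 2.91 CPM, below the control mean of 3.14 CPM in 5 of 5, with a log2 fold change of −0.29 ± 0.25 (SE; unadjusted p = 0.25). Mbd3 differed by 0.08 ± 0.07, 0.01 ± 0.08 and 0.05 ± 0.08 (SE) in Aro5, BPA5 and CPF3 females. The widest of their 95% intervals ran from −0.15 to 0.17 (BPA5).

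Whether a treatment acted differently in females and males was tested as an interaction in 1 fit over both sexes, with litter as a random block as an alternative. The log2 fold change of Tet1 under Aro5 was lower in females than in males by 1.35 ± 0.44 (SE; unadjusted p = 0.00329, adjusted p = 0.377), and that of Tet2 by 0.51 ± 0.18 (SE; unadjusted p = 0.00574, adjusted p = 0.406). These were the 2 of 9 members with an unadjusted p under 0.05 for Aro5, beside 8.92% of 17282 genes, and there were 0 of 9 for BPA5 and CPF3, beside 2.79% and 5.60%. None had an adjusted p under 0.05, where the shares of all genes were 0.0984%, 0.0405% and 0.0463%. Restricted to pups within the time window, the difference of Tet1 was −1.90 ± 0.47 (SE) with an adjusted p of 0.0309, and that of Tet2 was −0.67 ± 0.20 (SE) with an adjusted p of 0.0523. In that restricted fit 609 of 17452 genes passed (3.49%), in place of 17. The Aro5 males in it included the littermates 120-1y and 120-2y as separate samples. The interaction compares sexes whose high-dose libraries cannot be matched for name form.

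Between untreated pups of the 2 sexes Mbd3 and Dnmt1 differed. Mbd3 was 71.2 to 90.2 CPM in the 10 control females (median 79.7) and 39.4 to 60.2 CPM in the 9 control males (median 47.2), and the ranges did not overlap. Its log2 difference was 0.78 ± 0.07 (SE), higher in females (edgeR quasi-likelihood, adjusted p = 8.82e-09), and 10 of 10 females lay above every male. The groups did not overlap for 1 of the 9 members and for 5.40% of 17367 genes that passed the filter over all groups. The study's methods report RNA integrity that was on average lower and more variable in its male than in its female samples. The study also repeated the RNA-seq assay of the females. RNA integrity was not part of the fits, and its part in the differences between the sexes was not tested.

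Dnmt1 was 70.3 to 84.1 CPM in control females (median 76.7) and 54.2 to 78.6 CPM in control males (median 66.0). All 10 females lay above the male mean of 66.2 CPM, with overlapping ranges, and the log2 difference was 0.25 ± 0.06 (SE; adjusted p = 0.0018). The remaining members had adjusted p values of 0.353 or more, and the closest to the threshold, Tet1, had a log2 difference of 0.33 ± 0.26 (SE). Thus 2 of 9 members passed, both higher in females, beside 30.9% of the 15763 genes tested, and the same 2 had an unadjusted p under 0.05, beside 40.8%. The share of members was below that background.

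In 7 control litters both a male and a female were sequenced. Mbd3 was higher in the female in 7 of 7 litters, by 0.24 to 1.07 on the log2 scale (median 0.74), as was Dnmt1, by 0.03 to 0.49 (median 0.23). The smallest difference of Mbd3 came from litter N4, with 60.2 CPM in the male and 71.2 CPM in the female. Tet1 was higher in the female in 5 of 7 litters, and ranged from −0.54 to 2.15.

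Among control males only N2-2y had libraries of both name forms, so the forms could be compared in a single male. The 2 libraries of control male N2-2y had 29.9 CPM of Mbd3 in form A and 63.2 CPM in form B, a ratio of 2.11, and 6.25% of all genes lay at least as far apart between these libraries. Dnmt1 was 59.9 and 80.9 CPM in the same pair. In control female N4-3x the libraries of form A and B gave 71.03 and 71.55 CPM of Mbd3 and 76.0 and 79.1 CPM of Dnmt1. Within form A alone, Mbd3 was 71.03 to 83.53 CPM in 5 female and 29.9 to 60.2 CPM in 9 male control libraries, a log2 difference of 0.79 ± 0.12 (SE; adjusted p = 0.000253). Dnmt1 within form A differed by 0.20 ± 0.07 (SE; adjusted p = 0.0926), and with form as a covariate by 0.16 ± 0.06 (SE; adjusted p = 0.0523), so that of the pair only Mbd3 passed in these fits. Among all genes 11.65% passed within form A and 18.89% with the covariate.

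**Figure D4:**
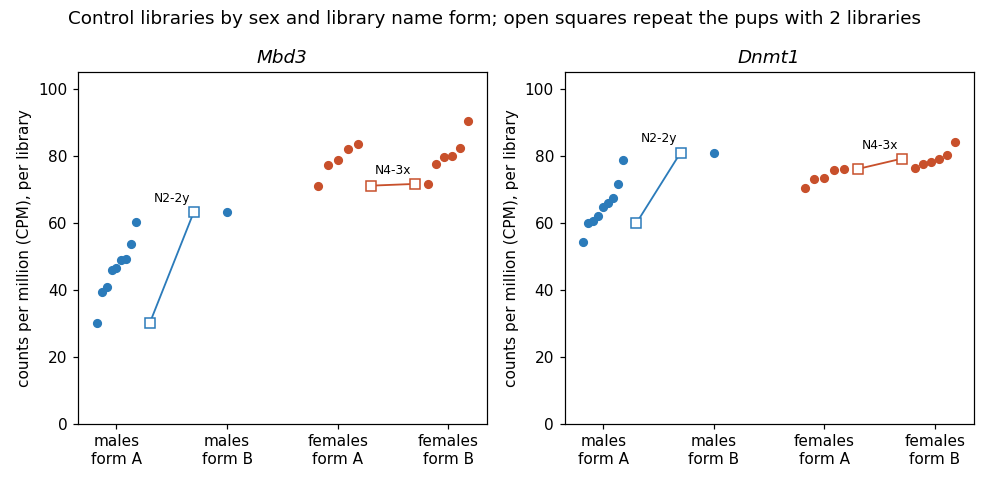
Levels of Mbd3 and Dnmt1 in CPM (y axis from 0) in each control library, grouped on the x axis by sex and library name form. Filled points are libraries, and open squares joined by a line repeat the 2 libraries of a pup, of which N2-2y went from 29.9 to 63.2 CPM of Mbd3 and N4-3x from 71.03 to 71.55 CPM.

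Markers of cell types also differed between control females and males. Of 41 marker genes 7 were higher and 3 lower in females (24.4%, beside 30.9% of all genes). The higher ones were Neurod2, Wfs1, Slc32a1, Rbfox3, Cldn5, Olig1 and Mbp, with log2 differences of 0.33 to 0.84, and the lower ones Slc1a3 of astrocytes (−0.17), Pdgfra of oligodendrocyte precursors (−0.21) and Ccnb1 of dividing cells (−0.25). Oligodendrocyte lineage markers thus differed in both directions, and Rbfox3 was the only gene of the list of general neuron markers that passed. Other lists were mixed as well, with the following genes not passing. Gad1 (−0.30) and Gad2 (−0.12) of interneurons went against Slc32a1. Of hippocampal neurons Prox1 (−0.18) and Neurod6 (−0.06) were lower and Zbtb20 (0.68) higher. Gfap (0.15), Aqp4 (0.05) and Aldh1l1 (0.02) went against Slc1a3. Mcm5 (0.15) and Mcm2 (0.03) went against Ccnb1, and the remaining markers of dividing cells were lower. The summed level of the 3 endothelial markers was 83.9 to 106.9 CPM in females and 58.7 to 79.0 CPM in males. Of these 3 only Cldn5 passed (log2 difference 0.52). Pecam1 (0.01, edgeR adjusted p = 0.941) and Flt1 (0.10, adjusted p = 0.539) did not, so the sum does not speak for the whole list. The summed level of the 7 markers of dividing cells, in which Dnmt1 is abundant, was 146 to 216 CPM in females and 181 to 221 CPM in males. None of the markers was at 0 in any pup. Their part in the difference of Mbd3 and Dnmt1 was not tested.

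The route of the controls was compared because Aro and BPA were fed and CPF was injected. In males no member had an unadjusted or adjusted p under 0.05 between CONSC and CONF, beside 0.988% and 0.0130% of 15387 genes. In females the 3 Tet genes were lower in CONSC with unadjusted p under 0.05 (3 of 9 members, beside 4.29% of 16618 genes), and none had an adjusted p under 0.05 (beside 0.00%). Tet1 was 1.98 to 2.87 CPM in CONSC and 2.66 to 5.75 CPM in CONF females, a log2 difference of −0.73 ± 0.22 (SE; unadjusted p = 0.00601, adjusted p = 0.85). For Tet2 the log2 difference was −0.34 ± 0.13 (SE) and for Tet3 −0.31 ± 0.14 (SE), and all 5 CONSC females lay below the CONF mean of each of the 3 genes. The CONF female N4-3x had the highest value of all 3 genes in its group. The combined female controls thus spanned this difference.

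A wider set of 39 genes of the same machinery was followed, of which 36 passed the filter. It held 13 further readers and maintenance factors such as Uhrf1 and Mbd6, 7 genes of active demethylation and base excision repair such as Tdg and the Gadd45 family, 11 subunits of NuRD, and 8 genes that supply methyl groups. In the 9 comparisons of treated with control pups 0 of 36 had an adjusted p under 0.05. With unadjusted p the count was highest, 6 of 36, in BPA5 and in Aro0.5 males and 0 of 36 in CPF1 males, beside 9.10%, 18.5% and 2.00% of all genes. The gene with the smallest p of each list was Usp7, which stabilises Dnmt1, in Aro0.5 males (log2 fold change −0.21 ± 0.07, SE, unadjusted p = 0.00494, adjusted p = 0.145). For demethylation it was Gadd45b in Aro0.5 males (0.59 ± 0.20, unadjusted p = 0.00812, adjusted p = 0.163), for NuRD Rbbp4, a histone-binding subunit, in BPA0.5 males (0.23 ± 0.08, unadjusted p = 0.00587, adjusted p = 0.436), and for methyl supply Ahcy in Aro0.5 males (0.25 ± 0.09, unadjusted p = 0.0163, adjusted p = 0.197).

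Between control females and males 18 of 36 of these genes passed (50%, beside 30.9% of all genes), 10 higher and 8 lower in females. Name form was unevenly spread over the control sexes, and all values of these genes, NuRD and methyl supply included, come from the fit without form. Among all genes 11.65% passed within form A and 18.89% with form as a covariate. Those 2 fits are not given here for the 36 genes. Of the readers and maintenance factors Mbd6 (log2 difference 0.77 ± 0.07, SE, adjusted p = 2.99e-08) and Uhrf1 (0.24 ± 0.09, adjusted p = 0.035), which guides Dnmt1 to replicated DNA, were higher, and Uhrf2 (−0.18 ± 0.05, adjusted p = 0.00931) and Cdca7 (−0.38 ± 0.13, adjusted p = 0.0256) were lower. The 3 Gadd45 genes were higher in females, Gadd45g by 1.06 ± 0.12 (SE, adjusted p = 2.86e-07), Gadd45b by 0.76 ± 0.16 (adjusted p = 0.000812) and Gadd45a by 0.30 ± 0.11 (adjusted p = 0.0426). They are also stress and activity response genes.

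NuRD subunits were divided. Mta1 (0.37 ± 0.06, SE, adjusted p = 2.75e-05), Gatad2a (0.36 ± 0.06, adjusted p = 0.000106), Chd3 (0.17 ± 0.05, adjusted p = 0.0163) and Mta3 (0.12 ± 0.04, adjusted p = 0.0267) were higher in females, as was Mbd3 itself. The histone-binding and deacetylase subunits were lower, Rbbp4 by −0.30 ± 0.05 (SE, adjusted p = 0.000135), Rbbp7 by −0.16 ± 0.05 (adjusted p = 0.0129), Hdac1 by −0.20 ± 0.06 (adjusted p = 0.0113) and Hdac2 by −0.13 ± 0.05 (adjusted p = 0.0484). Of the genes of methyl supply Shmt2 was higher (0.21 ± 0.06, SE, adjusted p = 0.00692), and Mat2b (−0.18 ± 0.05, adjusted p = 0.0116) and Shmt1 (−0.24 ± 0.09, adjusted p = 0.0472) were lower.

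Within groups some of the members varied together. For each of the 36 pairs the log2 CPM of the 64 pups, less the mean of the pup's group, were correlated, and p values came from 100000 permutations within groups with Benjamini-Hochberg adjustment over the pairs. Of these pairs 11 had an adjusted p under 0.05, 7 positive and 4 negative. Pairs of other genes were not tested in this way, so the count has no background share and is not shown to be particular to the members. The Tet genes formed 1 set with Mbd1. Tet1 and Tet2 had Pearson's r = 0.69 (adjusted p = 0.000144; Spearman's rho = 0.65, adjusted p = 9e-05), Tet1 and Tet3 r = 0.62 (rho = 0.62), Tet2 and Tet3 r = 0.61 (rho = 0.59), and Tet3 and Mbd1 r = 0.59 (rho = 0.60). Without the 2 pups farthest from the median, r was 0.63, 0.60, 0.61 and 0.59 for these pairs.

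Dnmt1 and Mbd3 formed another set, with r = 0.72 (permutation, adjusted p = 0.000154; rho = 0.58, adjusted p = 0.000405) and 0.64 without the 2 pups farthest from the median. Mbd3 varied against Tet2 (r = −0.60, rho = −0.54) and Dnmt1 against Mbd2 (r = −0.64, rho = −0.55). For Mbd2 and Mbd3, the alternative NuRD subunits, r was −0.45 (adjusted p = 0.0334) and rho −0.26 (adjusted p = 0.15), and r without the 2 pups was −0.29, so that this relation rests on those pups. Dnmt3a and Dnmt3b were in no pair with an adjusted p under 0.05, and their own r was −0.02. With the library name form removed as well, over the 53 libraries whose form could be read, from 51 pups of which N2-2y and N4-3x entered with both libraries, 13 pairs passed, and all 11 pairs kept their sign and passed again.

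Against the logarithm of the library total, r lay between −0.17 and 0.16 for the 9 genes within groups. Against the hour of dissection r was −0.39 for Tet1, −0.34 for Tet2 and −0.32 for Tet3 (permutation, adjusted p = 0.101, 0.17 and 0.101 over 18 relations; rho = −0.29, −0.27 and −0.40, with adjusted p of 0.287, 0.287 and 0.099), and without the 2 pups farthest from the median hour −0.36, −0.24 and −0.30. The part of the hour in the set of Tet genes was not tested apart from the restriction to 53 pups within the time window, in which 10 pairs passed.

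**Figure D5:**
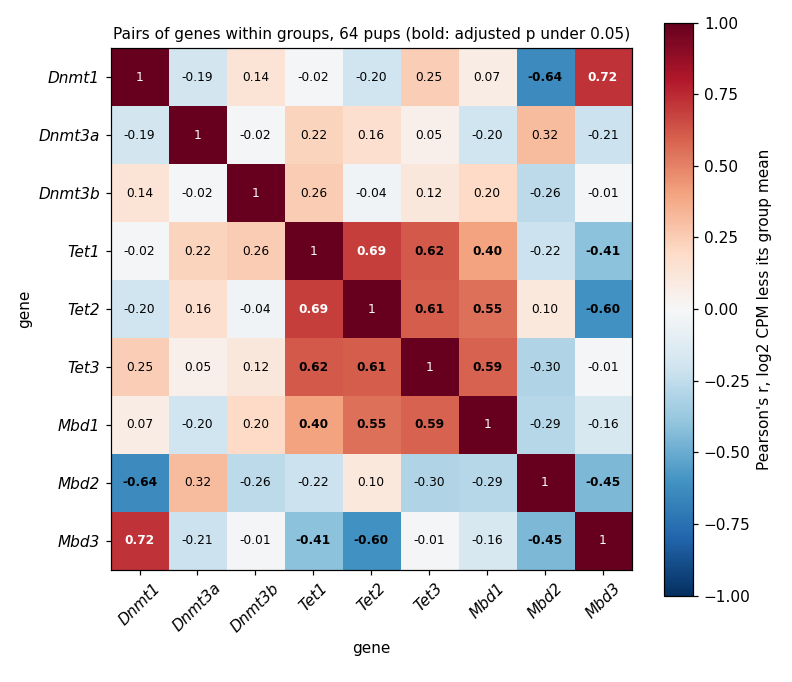
Pearson's r of each pair of genes over 64 pups after removal of group means, on a scale from −1 (blue) to 1 (red); both axes list the 9 genes, and bold values have an adjusted p under 0.05. The Tet genes and Mbd1 form a block of positive values of 0.40 to 0.69, and Dnmt1 with Mbd3 has the highest value, 0.72.

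Over all 64 pups, group differences included, the genes most like each member among 17367 were named by Pearson's r of log2 CPM, given here as a description. Mbd3 was most like Dhrsx (r = 0.99) and Csnk1g2 (r = 0.99), and Dnmt1 most like Dchs1 (r = 0.94) and LOC680835 (r = 0.93). Tet1 was most like the kinase gene Taok1 (r = 0.95) and Pgap1 (r = 0.93), Tet2 like Npat (r = 0.90) and the Polycomb gene Phc3 (r = 0.89), and Tet3 like the acetyltransferase gene Ep300 (r = 0.87) and the kinase gene Sik2 (r = 0.87). Lower values were found for Dnmt3a with Unc13c (r = 0.77) and Gpr158 (r = 0.76), Mbd1 with Zfp518b (r = 0.74) and Suv420h1 (r = 0.73), Mbd2 with Mrpl42 (r = 0.65) and Bhlhe41 (r = 0.64), and Dnmt3b with RGD1305422 (r = 0.59) and LOC100363637 (r = 0.58). All pups share the tissue and the counting, and the pups of both sexes and name forms enter these values.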

How the data were processed

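For each library the authors deposited raw counts per gene, made with STAR (alignment, build Rnor_6.0) and featureCounts. Versions and strand setting are not given in the sources used here, so reads of overlapping genes cannot be told apart. The labels and the study's methods name vehicle and sequencer differently. The 2 libraries of a pup were summed.

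Comparisons used edgeR 4.0.16 (TMM, filterByExpr by group, quasi-likelihood F test, Benjamini-Hochberg adjustment over all genes tested, threshold 0.05) in R 4.3.3, with DESeq2 1.42.0 and limma 3.58.1 as alternatives. Separate fits were made for females, for males of either dose level, for the interaction, for control sexes and, in each sex, for control routes. SE is the size of a log2 fold change divided by the square root of F, and 95% intervals use the t quantile at the fit's total degrees of freedom. Scripts were tested on simulated data. P values measure the spread between pups, and littermates entered as separate samples. Limma's consensus correlation of littermates was −0.17 among controls and −0.0061 in the interaction fit.

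Correlations used log2 CPM with a prior count of 0.5, with scipy 1.17.1, pandas 2.3.3 and numpy 2.4.6 in Python 3.11.15 (figures: matplotlib 3.10.9). The members, lists and comparisons were chosen with earlier results of these data known. Named genes are all members, listed genes with an adjusted p under 0.05 or the smallest p of their list, and the 2 genes most like each member.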

Additional observations from a re-analysis of the deposited data

Results flagged for a closer look

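Of 117 groups of a gene (9 genes, 13 groups of 4 to 7 pups), 10 held a pup far from the rest by Dixon's ratio of gap to range at the 95% level. Chance flags about 5% of such groups. The high values were Tet1 of CONSC male 10-2y at 5.15 CPM (others 1.58 to 2.56) and of CPF3 male 35-5y at 7.26 CPM (others 2.24 to 4.39), Tet3 of CONF male N2-2y at 104.4 CPM (others 81.5 to 82.3), whose separate libraries gave 98.3 and 110.1 CPM, and Dnmt3a of BPA5 male 81-1y at 309.4 CPM (others 210.2 to 240.0). BPA5 male 88-3y was high for both Tet2 at 45.7 CPM (others 28.5 to 35.9) and Mbd1 at 80.5 CPM (others 68.0 to 72.5). Aro5 female 120-3x had 104.1 CPM of Mbd3 (others 75.2 to 81.5). The low values were Dnmt1 of Aro5 female 117-6x at 62.7 CPM (others 75.6 to 79.9), Tet2 of BPA5 female 81-6x at 24.9 CPM (others 33.6 to 34.0) and Mbd3 of CPF3 female 45-6x at 77.1 CPM (others 83.1 to 83.7), a difference of few CPM in a group of 4.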

How the results depend on the processing

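The count of members that passed was the same under all alternatives in 12 of the 15 comparisons. For Aro5 in males it was 0, and 2 (Tet1 and Tet2) within the time window, where 818 of all genes passed against 32 and littermates entered as separate samples. With 1 pup left out in turn it ranged from 0 to 2, where 2 came from leaving out 108-1y, a fit whose share of all genes is not given here. For the interaction of sex and Aro5 it was 0, and 1 (Tet1) within the window, where 609 of all genes passed against 17. Between control sexes it was 2, and 1 (Mbd3) with name form as a covariate or within form A, and 2 whichever pup was left out. Among 4761 refitted log2 fold changes of single members 0 reversed a direction that passed, and 196 changed sign without passing. In limma-voom, a replicate block of litters gave 0 members for each interaction and 2 between control sexes, as did limma-voom without the block, and changed no call. Of the 36 pairs 11 passed, against 13 by Spearman's rho, 12 without the 2 pups farthest from the median, 10 within the window and 13 with name form removed. Depth limits Tet1, with as few as 11 counts in a pup, and Dnmt3b, with 35.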
